A study of Mus musculus with 2 samples.

Results

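Genes for cullins and for the F-box, Kelch and TRIM proteins that pick substrates for ubiquitination were examined in a list of C-to-U conversion sites from neuronal nuclei of mouse cortex. Members were all genes of the list whose names begin with Cul, Fbxo, Fbxl, Fbxw, Klhl, Kbtbd or Trim followed by a digit. There were 65 such genes of 6929 in the list, with 148 of its 17755 sites. Genes were taken by name pattern without use of their editing values, but the patterns were chosen with earlier results of these data known.

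The study held 1 group of 2 libraries, made from nuclei of the cortex that were fixed in 50% ethanol, stained for NeuN and flow-sorted. The mice had the genotype APOBEC1-YTH, a fusion of a cytidine deaminase to the YTH domain, which binds N6-methyladenosine (m6A). Bound to m6A, the fusion deaminates nearby cytidines, and the resulting C-to-U changes serve as a readout of the mark. All mice received tamoxifen at 20 mg/kg every 24 hours for 5 days from an age of 10 weeks, and material was taken 7 days after the last dose. The promoter of the transgene, the Cre line and the number of animals behind each library are not named in the labels, and libraries without the editor were not analysed here. The deposited list gives 1 editing level per site for both libraries together. It has 0 columns of coverage, so the depth is unknown, no spread between libraries can be given, and every comparison below is a description without a test.

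Cullins are long scaffold proteins. At one end they hold a RING protein that brings in a ubiquitin-charged enzyme, and at the other an adaptor that binds the substrate. F-box proteins serve as substrate adaptors of CUL1 ligases, and BTB-Kelch proteins such as those of the Klhl and Kbtbd genes serve CUL3. Most TRIM proteins carry their own RING domain and act as ligases without a cullin. In neurons, ligases of these families are known for roles in axon growth and synapse turnover.

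Markers of several cell types carried sites in the same list. Of 8 neuronal marker genes 4 had a site (11 sites in all), while Rbfox3, which encodes NeuN, and Tubb3, Gad1 and Gad2 had 0. Of 6 astrocyte markers 4 had a site (139 sites), with Gfap and Aldoc at 0. All 6 oligodendrocyte markers (44 sites), 2 of 4 microglial markers (12 sites) and all 4 endothelial and pericyte markers (47 sites) had sites. A site list gives no expression level, and in pooled nuclei fewer nuclei of a type and less RNA per nucleus cannot be told apart. The part of non-neuronal RNA in the values below was not tested.

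Members carried a site about as often as protein-coding genes at large. RefSeq names 200 protein-coding genes by the same patterns, and 65 of them (32.5%) had at least 1 site, against 28.3% of all 21900 protein-coding genes. A further 3 names belong to a long noncoding RNA and 2 pseudogenes and had 0 sites. The families differed in this share. It was 62.5% for cullins (5 of 8), 50.0% for Fbxl (9 of 18), 35.1% for Klhl (13 of 37), 33.3% for Kbtbd (3 of 9), 30.9% for Trim (21 of 68), 27.8% for Fbxo (10 of 36) and 16.7% for Fbxw (4 of 24). Among genes of other ubiquitin families, 43 of 83 named Rnf (51.8%) and 30 of 56 named Usp (53.6%) had a site.

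**Figure D1:**
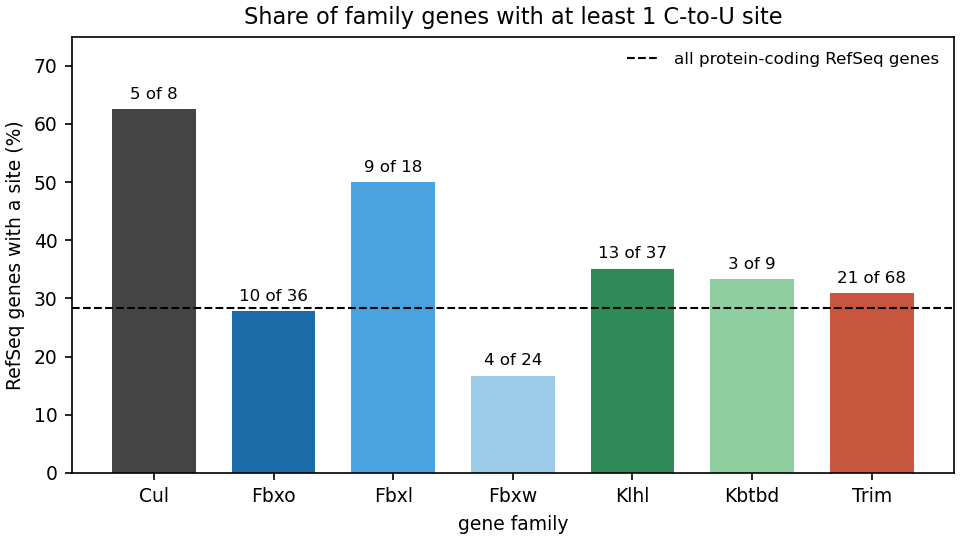
Bars give the percentage of protein-coding RefSeq genes of each family with at least 1 listed site, with the counts above the bars. The dashed line is the share over all protein-coding genes (28.3%). Cullins (62.5%) and Fbxl genes (50.0%) stand farthest above the line and Fbxw (16.7%) and Fbxo genes (27.8%) lie below it.

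The low share of the Fbxw family lay mostly in a single gene block. Of the 20 Fbxw genes without a site, 15 sit together on chromosome 9 between 109139454 and 109790660 (GRCm38.p6). They are Fbxw13 to Fbxw16 and Fbxw18 to Fbxw28. The other 5 without a site were Fbxw4, Fbxw8, Fbxw9, Fbxw10 and Fbxw17. Genes of such a block resemble each other, and how the authors treated reads shared by near copies is not given in the sources used here. Why these 15 genes had no site was not tested. Among all members, genes with a site had a median span of 27.6 kb and genes without one 18.3 kb. Over all protein-coding genes the medians were 34.2 kb and 12.5 kb.

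Editing levels of the members resembled those of the list. The editing level is the share of reads at a position that carry the change. The members' median was 4.03% (quartiles 2.22% and 8.08%, n = 148 sites), against 3.64% (2.01% and 6.90%) for all sites. Levels of at least 10% were listed for 29 member sites (19.6%), against 14.9% of all sites. Levels of at least 20% were listed for 7 member sites (4.73%), against 2.02%, and 32 member sites (21.6%) were under 2%, against 24.6%.

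By family the median level was 5.71% for Fbxl (21 sites), 5.13% for cullins (11), 4.63% for Kbtbd (6), 4.51% for Fbxw (6), 4.26% for Klhl (29), 3.23% for Fbxo (16) and 2.90% for Trim (59). The Trim median moved when the 3 Trim genes with the most sites were left out. Without Trim2 alone it was 2.78%. Without Trim2, Trim8 and Trim9 the remaining 30 Trim sites had a median of 4.72%, and the gap between F-box genes (4.76% over 43 sites) and Trim genes went from 1.86 to 0.045 percentage points. The ranges of all 7 families overlapped.

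**Figure D2:**
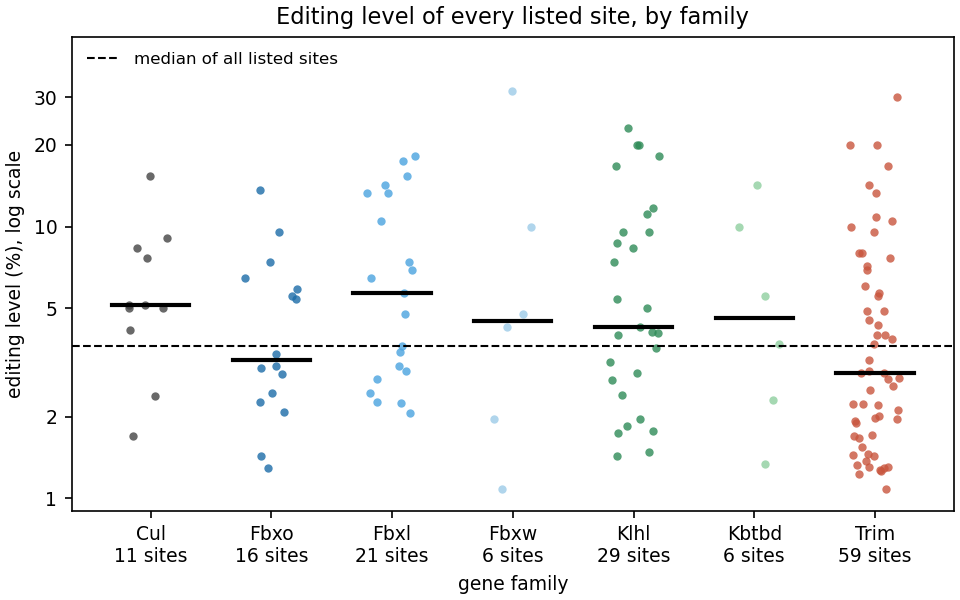
Each point is a listed site, with its editing level on a log axis, grouped by family. Black bars are family medians and the dashed line is the median of all listed sites (3.64%). The families overlap throughout, and the 59 Trim sites include the longest run of levels under 2%.

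Of the 8 cullin genes, 5 had sites. Cul9, the large cytoplasmic cullin also known as PARC (chromosome 17, 46500609 to 46546388), had 4 sites, at 1.69%, 5.0%, 4.17% and 5.13% from the 5′ to the 3′ end. The first 3 of these lay between 2.66 and 3.05 kb from the 5′ end and the fourth near the middle of the gene, so none was in the last 5 kb. Cul5, a scaffold for SOCS-box adaptors (chromosome 9, 53614581 to 53667507), had a site at 7.69% in mid-gene and the highest cullin level, 15.4%, at 1842 bp from the 3′ end. Cul3, the scaffold of the BTB-Kelch adaptors (chromosome 1, 80264923 to 80340690), had 5.0% and 8.33% at sites 212 nt apart, 2246 and 2034 bp from the 3′ end.

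The paralogs Cul4a and Cul4b, scaffolds for DDB1 and its adaptors, had no site in the last 5 kb. Cul4a (chromosome 8, 13105623 to 13147940) had 9.09% and 2.38%, the latter at 5391 bp from the end. Cul4b (chromosome X, 38531616 to 38576196) had its sole site at 5.13%. Cul1, the scaffold of the F-box adaptors, and Cul2 and Cul7 had 0 sites.

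Among F-box genes, Fbxo38 and Fbxl16 differed in where their sites lay. Fbxo38 (chromosome 18, 62504059 to 62548863), the gene of an adaptor known for the T-cell receptor PD-1, had 5 sites at 13.6%, 9.52%, 2.86%, 2.27% and 6.45%. All 5 lay more than 11 kb from the 3′ end, and the 2 nearest the 5′ end were the highest. In Fbxl16 (chromosome 17, 25808461 to 25821262), an F-box gene expressed in brain, all 4 sites were in the last 5 kb. They were at 17.4%, 14.3%, 2.44% and 2.25%, so that here the 2 sites nearest the 3′ end were the lowest. In both genes the sites nearest the 5′ end thus had the highest levels.

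Of the other leucine-rich repeat F-box genes, several had 1 to 3 sites. Fbxl5, an iron-sensing adaptor for the iron regulatory protein IRP2, had 2.94%, 6.90% and 6.45%, the last 2 at 594 and 212 bp from the 3′ end. Fbxl12 had 15.4% and 13.3%, but its first site also lies under the RefSeq span of Ubl5. The strand of Ubl5 was not compared with that of the site, so the gene of this site was not settled. Fbxl20, known as Scrapper for its action on the active zone protein RIM1, had 4.76% and 5.71%. Fbxl17, an adaptor for faulty BTB dimers, had 18.2% at its sole site in a span of 458.2 kb.

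Fbxo genes other than Fbxo38 had 1 or 2 sites each. Fbxo11 had 2.44% and 1.29%, and Fbxo44, of the glycoprotein-binding branch, had 1.43% and 3.03%. The sole sites of Fbxo9, Fbxo42 and Fbxo45 were at 7.41%, 5.88% and 5.56%. Fbxo45 encodes the partner of the synaptic ligase MYCBP2. The sites of the remaining 4 Fbxo genes (Fbxo2, Fbxo3, Fbxo7 and Fbxo32) were between 2.08% and 5.41%. That of Fbxo32 (5.41%) also lies under the span of Gm36112, whose strand was not compared.

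The 4 Fbxw genes spanned the whole range of member levels. Fbxw2 (chromosome 2, position 34806529) had the highest level of any member, 31.6%, at 2165 bp from the 3′ end. Fbxw7, the adaptor for cyclin E, MYC and Notch, had the joint lowest level of any member, 1.08%, at its sole site in mid-gene. Fbxw11, a beta-TrCP gene, had 10.0% and 4.26%, and Fbxw5 had 1.96% and 4.76%. Fbxw2 and Fbxw7 thus lay at opposite ends of the levels seen here, each on the strength of 1 site of unknown read depth.

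Among BTB-Kelch genes, Klhl5 (chromosome 5, 65107551 to 65168173) had the most sites, 8. Its levels from the 5′ to the 3′ end were 1.48%, 3.17%, 1.85%, 2.73%, 5.41%, 1.74%, 1.77% and 7.41%. The highest lay at 916 bp from the 3′ end, and 6 of the 8 lay outside the last 5 kb. Klhl24, whose protein is known to interact with kainate receptors (chromosome 16, 20097553 to 20129226), had 4 even sites at 2.90%, 3.57%, 4.0% and 4.08% (SD across sites 0.54).

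Klhl11 and Klhl28 had the highest Kelch levels. Klhl11 (chromosome 11, 100457122 to 100472782) had 2.41% at 7164 bp from the 3′ end, and 20.0% and 23.1% at sites 63 nt apart, 1511 nt further on. Klhl28 had 20.0% inside its span and 18.2% at a site 1773 bp beyond the RefSeq 3′ end. Klhl2, also called Mayven, which targets WNK kinases, had 1.96%, 1.43% and 8.70%, the last at 349 bp from the 3′ end. Klhl26 had 4.05% and 4.26%.

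Kelch genes with a sole site reached from 5.0% in Klhl23 to 16.7% in Klhl25. The sole sites of Klhl1 (11.8%), Klhl29 (9.52%) and Klhl9 (8.33%) lay in the first 1 kb of the gene, at 467, 575 and 332 bp from the 5′ end. The spans of Klhl1 and Klhl29 are 413.8 and 298.2 kb long, and their sites were the 2 member sites farthest from a 3′ end. The span of Klhl9 is only 4.2 kb, so its site, 3884 bp from the 3′ end, also counts in the last 5 kb.

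Of the Kbtbd genes, Kbtbd11 (chromosome 8, 15011025 to 15033333) had all 4 sites in the last 5 kb, at 2.30%, 3.70%, 1.34% and 10.0%. The last of these, 186 bp from the 3′ end, was the highest. Kbtbd4 and Kbtbd7 had sole sites at 14.3% and 5.56%. All 6 Kbtbd sites were in the last 5 kb, but the spans of Kbtbd4 and Kbtbd7 are only 5.8 and 4.5 kb.

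The Trim genes held the members with the most sites. Trim2, a brain-enriched ligase known to bind neurofilament light chain (chromosome 3, 84160439 to 84308352), had 12 sites at a mean of 4.02% ± 2.95 (SD across sites), and 127 genes of the list, Trim2 among them, had at least as many. From the 5′ to the 3′ end its levels were 4.0%, 1.46%, 1.27%, 4.90%, 2.90%, 10.8%, 5.56%, 8.0%, 1.98%, 1.92%, 1.43% and 4.0%. A group of 3 sites at 4293, 4288 and 4257 bp from the 3′ end had 5.56% to 10.8%, and a second group of 3 at 3800, 3794 and 3747 bp had 1.43% to 1.98%. The levels of these groups did not overlap, although they were 457 nt apart. The first site of Trim2, 110209 bp from the 3′ end, lay 135 bases after a RefSeq start inside the gene.

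Trim8 (chromosome 19, 46501648 to 46516805) had 9 sites in a span of 15.2 kb, the densest of the 16 members with 3 or more sites (5.94 sites per 10 kb, next Fbxl16 with 3.12). Of these, 8 were between 1.08% and 2.22%, and the site 203 bp from the 3′ end was at 13.3%. The neighbour of that site, 1176 nt away, was at 1.33%, the widest ratio between neighbouring sites of a member (10.0). Trim8 had 4 sites between 664 and 1209 bp from the 5′ end, at 1.26% to 2.01%.

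Trim9, a brain ligase that binds the netrin receptor DCC (chromosome 12, 70244533 to 70347869), had 8 low sites along a long gene. They were at 2.50%, 1.29%, 1.37%, 1.23%, 2.11%, 2.90%, 1.90% and 2.22%, a mean of 1.94% ± 0.61 (SD across sites). The first 2 were 511 and 1006 bp from the 5′ end, and the last 4 were within 1.5 kb of the 3′ end, while the remaining 2 (1.37% and 1.23%) lay near neither end. No site of Trim9 reached the members' median of 4.03%.

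Of the Trim genes with 3 sites, Trim39 was even and Trim37 was not. Trim39 had 2.78%, 2.60% and 2.74% within 102 nt (73 and 29 nt apart). Trim37, the gene mutated in mulibrey nanism, had 1.96%, 2.20% and 16.7%, with 0 of the 3 in the last 5 kb. Trim33, a regulator of SMAD4 also called TIF1-gamma, had 3.23%, 6.90% and 4.88%.

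Trim levels of 20% or more were in Trim30d and Trim25. Trim30d had 30.0% at its sole site, and Trim25, the ligase of the RIG-I antiviral pathway, had 20.0% at both of its sites, 141 nt apart. Trim30d belongs to a block of related Trim genes on chromosome 7, where Trim30a (2.94%) and Trim34a (3.70%) also had a site and Trim5, Trim6, Trim12a, Trim12c, Trim30b, Trim30c, Trim34b and the pseudogene Trim30e-ps1 had 0. Which gene of the block those reads came from is uncertain. Trim28, the corepressor KAP1, had 1.30% and 4.55%. The sites of Trim56 (9.52% and 7.14%) lay 2273 and 4073 bp beyond the RefSeq 3′ end, and that of Fbxl18 (2.27%) 3714 bp beyond it, so those gene names rest on the authors' annotation. Trim3, Trim32, Trim46 and Trim67, known from neurons and named here after their values were seen, had 0 sites.

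Members with many sites had lower levels. The 10 members with 4 or more sites (15.4% of members, against 20.0% of all listed genes) had a median level of 2.74% over 64 sites. Members with 2 or 3 sites had 5.36% over 52 sites. The 32 single-site members (49.2%, against 49.2% of all listed genes) had 5.56%. Over the whole list the same 3 classes had medians of 2.82%, 4.26% and 6.06%. Levels under 2% made up 32.8% of sites in members with 4 or more sites and 12.5% in single-site members, against 32.9% and 10.3% over the whole list. Read coverage of the sites is not in the table, and its part in this order was not tested. Trim2, Trim8 and Trim9 gave 12, 9 and 8 of the 64 sites in members with 4 or more sites. Without these 3 genes, levels under 2% made up 14.3% of the remaining 119 member sites, against 21.6% with them. The 3 classes were not recomputed without these genes, so the lower levels may rest largely on them.

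**Figure D3:**
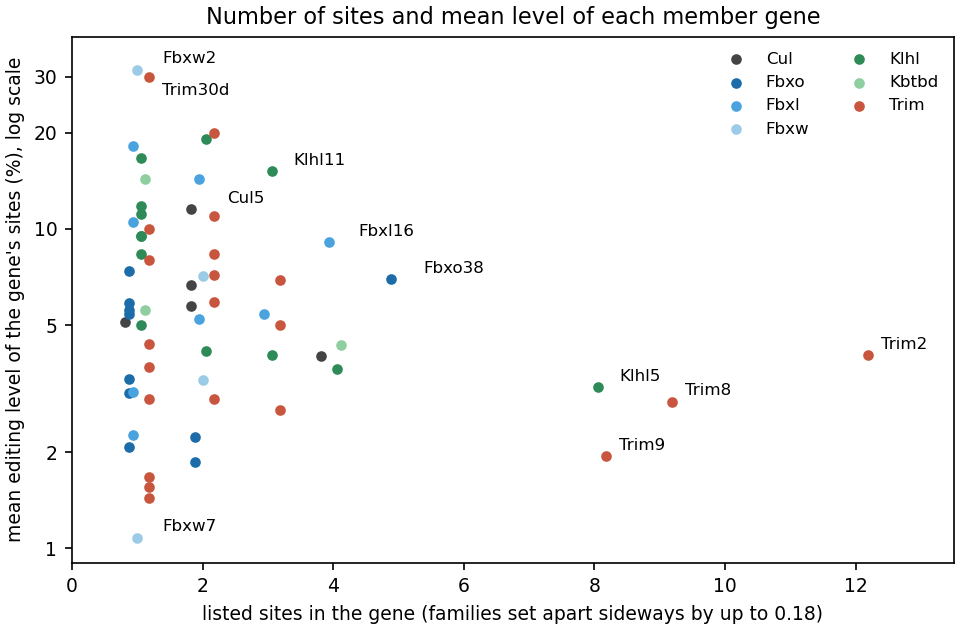
Each point is a member gene (64 shown), with its number of listed sites and the mean editing level of those sites on a log axis, coloured by family. Single-site genes reach from 1.08% (Fbxw7) to 31.6% (Fbxw2), while the genes with 8 or more sites lie between 1.94% (Trim9) and 4.02% (Trim2).

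Member sites were spread along the genes much as in the list. Of 144 member sites inside their RefSeq span, 66 (45.8%) were in the last 5 kb, against 49.7% of all such sites, and 9 (6.25%) were in the first 1 kb, against 8.02%. Of the 16 members with 3 or more sites, Fbxl16 and Kbtbd11 had all sites in the last 5 kb, Cul9, Fbxo38, Klhl11 and Trim37 had none there, and 10 had sites in both parts. For 2 of these genes the class hangs on the 5 kb limit. The sites of Klhl11 lay 5590 to 7164 bp from the 3′ end, and those of Trim39, counted in both parts, at 5008, 4979 and 4906 bp. Whether a site is in an exon, an intron or a UTR was not determined, since the gene table gives spans only.

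**Figure D4:**
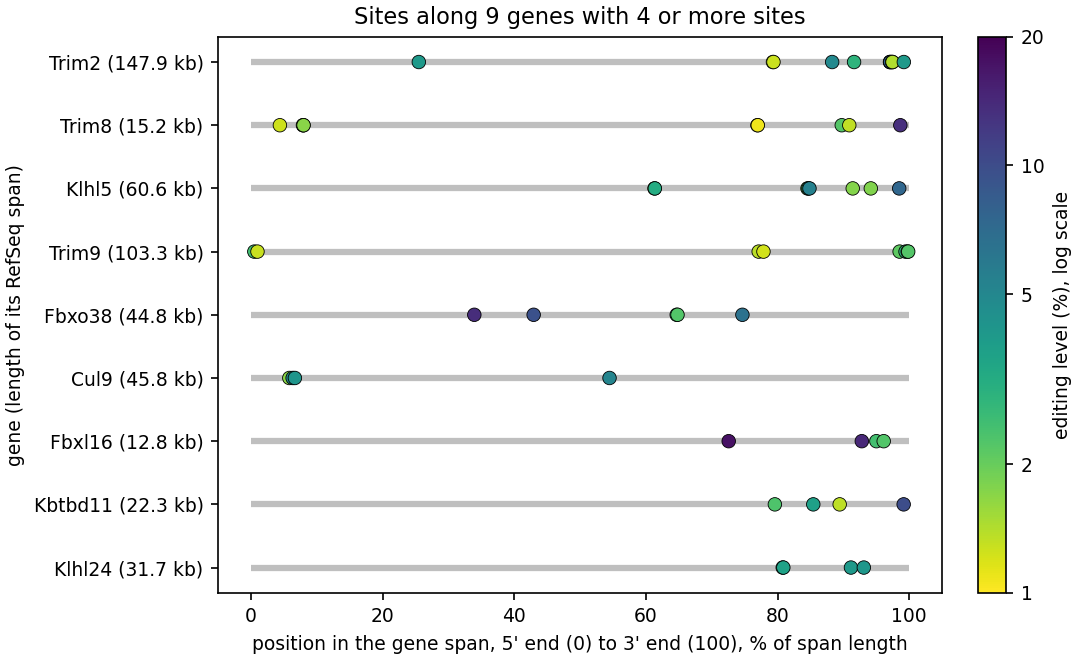
Grey bars are the RefSeq spans of 9 members with 4 or more sites, scaled to 100% from the 5′ to the 3′ end, with each site as a point coloured by editing level (log scale). Most sites of Trim2, Klhl24, Kbtbd11 and Fbxl16 lie towards the 3′ end, Trim8 and Trim9 have sites near both ends, and Cul9 and Fbxo38 have none in the last 5 kb.

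Within members, as in the whole list, the end of the gene had the higher levels more often than not. Of 14 members with sites both in the last 5 kb and elsewhere, 11 had the higher mean in the last 5 kb (78.6%, against 70.9% of 1619 such genes in the list). The median difference was 2.05 points, against 1.36 points in the list. Wide differences were those of Cul5 (15.4% against 7.69%), Klhl2 (8.70% against 1.70%) and Trim23 (14.3% against 7.69%). Each of these had only 1 site in the last 5 kb. Elsewhere Cul5 and Trim23 had 1 site and Klhl2 had 2. The exceptions were Fbxl12, Trim33 and Trim39, of which Trim33 and Trim39 differed by less than 0.2 points (-0.19 and -0.11). Fbxl12 differed by -2.05 points, with 1 site in each part. Its site outside the last 5 kb (15.4%) is the one under the Ubl5 span, whose gene was not settled. Over all member sites the median was 4.82% in the last 5 kb (n = 66 sites) and 3.20% elsewhere (n = 78), and over the whole list 4.35% and 2.97%.

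Sites close to each other had similar levels. Of the 148 member sites, 31 (20.9%) had another site of the gene within 100 nt, against 22.8% of all sites. In the 18 pairs of neighbouring sites at most 100 nt apart, from 10 members, the higher level was a median of 1.20 times the lower, and 15 pairs (83.3%) were within 1.5-fold, against 62.6% of such pairs in the list. In the 46 pairs more than 1000 nt apart the median ratio was 1.95, and 15 pairs (32.6%) were within 1.5-fold, against 40.3%. Sites 4 nt apart in Trim8 had 1.69% and 1.71%, and sites 11 nt apart in Trim62 had 5.71% and 6.06%. The 3 pairs beyond 1.5-fold were in Klhl5, at 1.48% and 3.17% (33 nt apart) and at 2.73% and 5.41% (95 nt apart), and in Trim2, at 10.8% and 5.56% (5 nt apart). Sites this close can lie on the same reads, so they are not independent measurements.

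**Figure D5:**
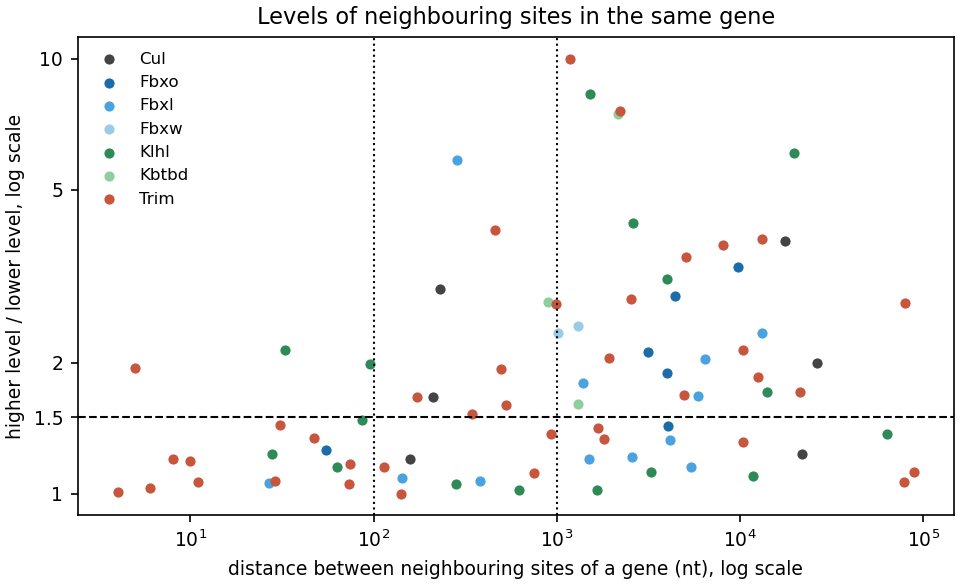
Each point is a pair of neighbouring sites in a member gene, with their distance in nt and the ratio of the higher to the lower level, both on log axes. The dashed line marks a ratio of 1.5 and the dotted lines 100 and 1000 nt. Of the 18 pairs at most 100 nt apart 15 lie under the dashed line, and of the 46 pairs beyond 1000 nt 15 do.

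Among other genes of the pathway a larger share had a site than among the members (32.5%) or all protein-coding genes (28.3%). The difference was not tested. The lists given here were picked by hand with earlier results of these data known, whereas members were every gene of a name pattern. The shares therefore rest on unlike ways of choosing genes. Of 37 genes for RING partners, neddylation enzymes, the COP9 signalosome and other cullin regulators, 20 (54.1%) had a site, with 41 sites at a median of 5.26%. They were led by the ubiquitin-conjugating enzyme gene Ube2d3 (6 sites, mean level 3.52%), Cand1, the exchange factor for cullin adaptors (3 sites, 12.5%), the neddylation cofactor gene Dcun1d4 (3 sites, 11.3%) and Arih1, whose ligase works with neddylated cullins (2 sites, 9.99%). Of 57 genes listed as adaptors under other names, 26 (45.6%) had a site, with 56 sites at a median of 4.22%. Kctd12, listed there although known as an auxiliary subunit of the GABA-B receptor, had 12 of these sites (4.92%). The CUL3 adaptor gene Spop had 10 (3.37%), Dcaf8 4 (7.5%) and Socs5 3 (7.11%). Both Kctd12 (11 of 12) and Spop (8 of 10) had most sites in the last 5 kb.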

How the data were processed

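C-to-U sites were measured in 2 libraries of sorted nuclei. Per the series' design text the authors found sites with Bullseye, and the submitters' processing notes name STAR 2.7.5 and mm10. How Bullseye was set and how the libraries were joined is not given in the sources used here. Deposited was a table with an editing fraction per site (1 value for both libraries), printed here as a percent. Positions are 1-based. At all 255 listed sites that fall in RefSeq promoter windows the base on the site's strand was C. None of these is a member site and a genome sequence was not used here, so no bases around member sites are printed.

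Names were matched to the RefSeq gene table of GRCm38.p6 (all 65 members, 6456 of 6929 names). Distances were taken to the ends of RefSeq spans, with the site's strand as the gene's strand, in Python 3.11.15 with pandas 2.3.3, and tested on simulated sites. An end stretch was the last 5 kb, and close meant 100 nt or less. Of the planned positions, exon and UTR classes were not run, and no replicate could be left out. Members and gene lists were chosen with earlier results of these data known. Genes named were all cullins, the 6 members per family with the most sites, members with 4 or more sites, the 15 highest sites, members with 3 or more sites all inside or all outside the last 5 kb, and 4 genes per pathway list. Other names were chosen after their values were seen. The values of 1 gene these rules name are not reported here, but it stays in the counts. Alternatives are under the closing section.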

Additional observations from a re-analysis of the deposited data

How the results depend on the processing

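Of 38 recomputed values, 22 stayed within the limits set for them (1.5 times for counts, medians and differences, the exact 95% binomial interval for shares), 16 moved further and none changed sign. With sites of 5% or more only, members had 63 sites and 22.5% of the RefSeq family genes had a site. The share over all protein-coding genes at this minimum is not given here, so the 22.5% cannot be set against it. The median level was then 9.52%, against 8.70% over the whole list at the same minimum. A gene had a mean of 1.40 sites, 11.1% of sites were within 100 nt of another, and the F-box minus Trim difference was 0 points. Whole-list values for these other measures at this minimum are not given here. That difference was 0.53 points at a minimum of 2%, 1.08 points between medians of gene means, and 0.045 points without Trim2, Trim8 and Trim9, an alternative chosen after seeing the data. The share of sites counted as high was 42.6% at 5% (whole-list share not given here) and 4.73% at 20% (2.02% over the whole list). The median of the highest site per gene was 7.41%. The share in the end stretch was 23.6% for the last 2 kb (29.9% over the whole list) and 62.5% for the last 10 kb (61.1%). The share close to another site was 7.43% within 20 nt (8.72%) and 35.1% within 500 nt (38.9%). The cause of these shifts was not tested beyond the construction of each setting. No paired analysis was possible because there is 1 group and no value per library. Depth is unknown, so neither its limit on low levels nor the number of reads behind the highest levels can be given.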
